A study of Homo sapiens with 3 samples.

Results

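Fibroblast growth factors (FGFs) and their receptors were examined through 9 genes, the ligand genes FGF1, FGF2, FGF5, FGF9 and FGF18 and the receptor genes FGFR1, FGFR2, FGFR3 and FGFR4, out of 19775 genes with a probe set of their own on the array. All probe sets were taken that the platform annotation gave to exactly 1 symbol among these, which were 40 of the 41091 probe sets with a single symbol. The cells were U2OS, a human osteosarcoma line, transduced with a retrovirus in every group and harvested at day 5. One group received a form of the histone H4 lysine 20 monomethyltransferase Set8b that resists the CRL4-Cdt2 ubiquitin ligase (labelled Set8_deltaPIP2, called stable Set8b here), another received wild-type Set8b (Wt-Set8b), and the reference received the empty vector (pMSCV-vector). Each group had 1 array, so there is no replicate check, no test and no p-value, and precision is limited by how few arrays there are. The sources used here do not give whether transduced cells were selected or cloned. The genes were chosen with earlier results of these arrays known, among them the low FGF9 signal with stable Set8b, so the differences below are descriptions.

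FGFs are signalling proteins that bind heparan sulfate on the cell surface together with a receptor tyrosine kinase. The bound receptors pair and phosphorylate each other, the adaptor FRS2 recruits GRB2, and the RAS-ERK and PI3K pathways are switched on, while Sprouty and dual-specificity phosphatase genes are induced and dampen the signal. In bone, FGFR1, FGFR2 and FGFR3 and the ligands FGF2, FGF9 and FGF18 are known for roles in osteoblast and growth plate development.

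The sequences upstream of transcription starts are shown for FGF1 and FGF5, whose probe sets all had their highest signal with stable Set8b, near background in FGF5, and for FGF2, which hardly differed between the arrays. Each run is the 250 bases before an annotated start, 5′ to 3′, from RefSeq (GRCh38.p14), with 3 separate starts for FGF1 and 2 for FGF5. A further FGF1 window, which overlaps the first one, is not shown. Capitals mark GC boxes (GGGCGG), AP-1 sites (TGANTCA) and TATA boxes (TATAAA), searched on both strands, as were ETS sites (CCGGAAG).
FGF1, chr5:142698071-142698320, minus strand: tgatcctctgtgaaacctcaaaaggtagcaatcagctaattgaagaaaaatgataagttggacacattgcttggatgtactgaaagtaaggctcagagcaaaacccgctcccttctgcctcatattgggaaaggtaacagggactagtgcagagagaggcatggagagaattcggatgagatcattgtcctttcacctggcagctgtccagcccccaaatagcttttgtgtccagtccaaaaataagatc
FGF1, chr5:142686091-142686340, minus strand: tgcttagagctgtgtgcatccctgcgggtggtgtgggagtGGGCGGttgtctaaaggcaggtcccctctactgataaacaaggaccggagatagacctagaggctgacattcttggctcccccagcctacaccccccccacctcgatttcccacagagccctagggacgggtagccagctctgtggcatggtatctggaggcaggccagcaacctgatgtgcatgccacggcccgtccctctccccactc
FGF1, chr5:142644240-142644489, minus strand: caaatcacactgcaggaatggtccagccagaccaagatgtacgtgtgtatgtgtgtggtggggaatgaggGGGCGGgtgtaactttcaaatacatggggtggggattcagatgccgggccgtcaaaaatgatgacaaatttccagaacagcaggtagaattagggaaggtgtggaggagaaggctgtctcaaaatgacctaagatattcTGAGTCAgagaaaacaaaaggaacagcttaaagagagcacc
FGF5, chr4:80266338-80266587, plus strand: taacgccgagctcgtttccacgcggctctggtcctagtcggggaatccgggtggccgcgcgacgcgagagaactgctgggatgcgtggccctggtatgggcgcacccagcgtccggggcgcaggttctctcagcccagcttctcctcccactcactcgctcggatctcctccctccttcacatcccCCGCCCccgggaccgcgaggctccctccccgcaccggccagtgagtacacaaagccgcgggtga
FGF5, chr4:80268018-80268267, plus strand: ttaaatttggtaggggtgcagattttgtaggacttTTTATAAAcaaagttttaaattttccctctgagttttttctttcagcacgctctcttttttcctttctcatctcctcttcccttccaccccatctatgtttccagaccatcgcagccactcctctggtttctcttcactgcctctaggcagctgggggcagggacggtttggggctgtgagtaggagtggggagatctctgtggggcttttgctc
FGF2, chr4:122826581-122826830, plus strand: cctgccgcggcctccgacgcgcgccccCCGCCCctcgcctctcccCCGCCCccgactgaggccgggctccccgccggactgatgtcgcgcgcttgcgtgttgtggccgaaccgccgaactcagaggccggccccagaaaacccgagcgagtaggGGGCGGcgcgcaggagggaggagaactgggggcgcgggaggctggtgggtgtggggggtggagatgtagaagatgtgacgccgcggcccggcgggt
The FGF1 windows held 2, 7 and 4 CpG dinucleotides in the order shown, the FGF5 windows 27 and 3 and the FGF2 window 33, against a median of 11 over all 35116 windows of this length. A GC box was found in 42.6% of all windows, an AP-1 site in 6.6%, a TATA box in 10.7% and an ETS site in 8.5%. The last FGF1 window held the 1 AP-1 match among these runs, beside 1 GC box, and the FGF2 window held 3 GC boxes. TATA matches were found in the second FGF5 window alone, 2 that overlap each other, and no ETS match was in any window shown. These matches are letters in a window and do not show that a factor binds there.

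The values are probe-set intensities, quantile normalized across the 3 arrays. Deposited medians were 41.6 with stable Set8b, 42.7 with wild-type Set8b and 38.6 with vector. The transduced gene KMT5A was read by 4 probe sets with log2 differences of stable Set8b over vector from -0.76 to 0.90, and whether their probes match the transduced sequence was not analysed, so they do not check the labels. Among 18 hybridisation spike-in probe sets the median stable Set8b signal was 0.796 times the vector signal and 0.784 times the wild-type Set8b signal. The wild-type Set8b signal was 1.009 times the vector signal, so in them the stable Set8b array stood apart. The part of this in the FGF1 and FGF9 differences was not tested. Among 24 poly-A spike-in probe sets the median stable Set8b signal was 0.467 times the vector signal. There the wild-type Set8b signal was 0.441 times the vector signal, so in them the vector array stood apart. The 3′ to 5′ signal ratio of GAPDH was 1.02, 1.12 and 1.03 with stable Set8b, wild-type Set8b and vector, and that of ACTB 7.33, 7.56 and 8.0. Of 9 measured mesenchymal and osteoblast markers, 6 had signals of at least 50 on every array, among them VIM and SPARC, while COL1A2 and SP7 were below 50 on every array. FN1 and CDH11 of this list were 2.92-fold and 2.45-fold higher with stable Set8b than with vector. Of its 7 genes with a geometric mean of at least 50, 6 lay above 0 and 1, RUNX2, below. Among all genes these counts were 5833 and 5989. VIM was level at 0.02 log2. The RUNX2 probe sets ran from -0.62, at the brightest, to 0.70, and those of COL1A1 from -0.89 to 0.78. Bright probe sets weigh most in the list's summed signal. That sum was 41913 with stable Set8b, 30659 with wild-type Set8b and 33711 with vector. Of 7 leukocyte markers 4 were below 50 on every array, PTPRC among them, and CD3D and CD79A were at 50 or more on all, with sums of 457, 383 and 323 in the same order of arrays. Of 5 endothelial markers CDH5, KDR and TEK were below 50 on every array, with sums of 263, 254 and 178. With stable Set8b over vector PECAM1 was 2.31-fold higher and VWF 1.36-fold lower. Of 8 epithelial markers KRT5, KRT19 and ESRP1 were below 50 on every array, with sums of 576, 799 and 659. EPCAM was 2.55-fold lower with stable Set8b than with vector. CLDN4, KRT14 and OVOL1 went the other way, 1.68-fold, 1.47-fold and at least 1.31-fold higher, so the list had no common direction. The part of these marker differences in the FGF results was not tested. In these bulk samples, fewer cells that express a gene and less of its RNA per cell cannot be told apart.

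FGF1 was higher and FGF9 lower with stable Set8b than on either other array, FGFR2 and FGFR3 leaned lower against vector without reaching 2-fold, and FGF2, FGFR1 and FGFR4 differed by far less than 2-fold at their brightest probe sets. A signal below 50 was taken as near background. Of the 120 member values 67 were below 50, and 20 of the 40 member probe sets stayed below it on every array. A probe set was compared if its geometric mean over the 3 arrays was at least 50, which 18 member probe sets of 8 genes met, and any signal below 50 was then set to 50, so that a difference against it is a lower limit of its size. Such a limit does not cover noise. Just below the mark lay vector signals of 47.8 for FGF5 (210311_at) and FGFR4 (1554962_a_at), and just above it lay 52.9 with vector for FGF1 (208240_s_at) and 55.1 with stable Set8b for FGFR1 (207937_x_at). The one spread at hand comes from genes with several probe sets, with a root mean square SD within genes of 0.369 log2 for stable Set8b over vector (5374 genes), 0.397 for stable over wild-type Set8b (5384 genes) and 0.332 for wild-type Set8b over vector (5363 genes). Differences between cultures are not part of it.

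**Figure D1:**
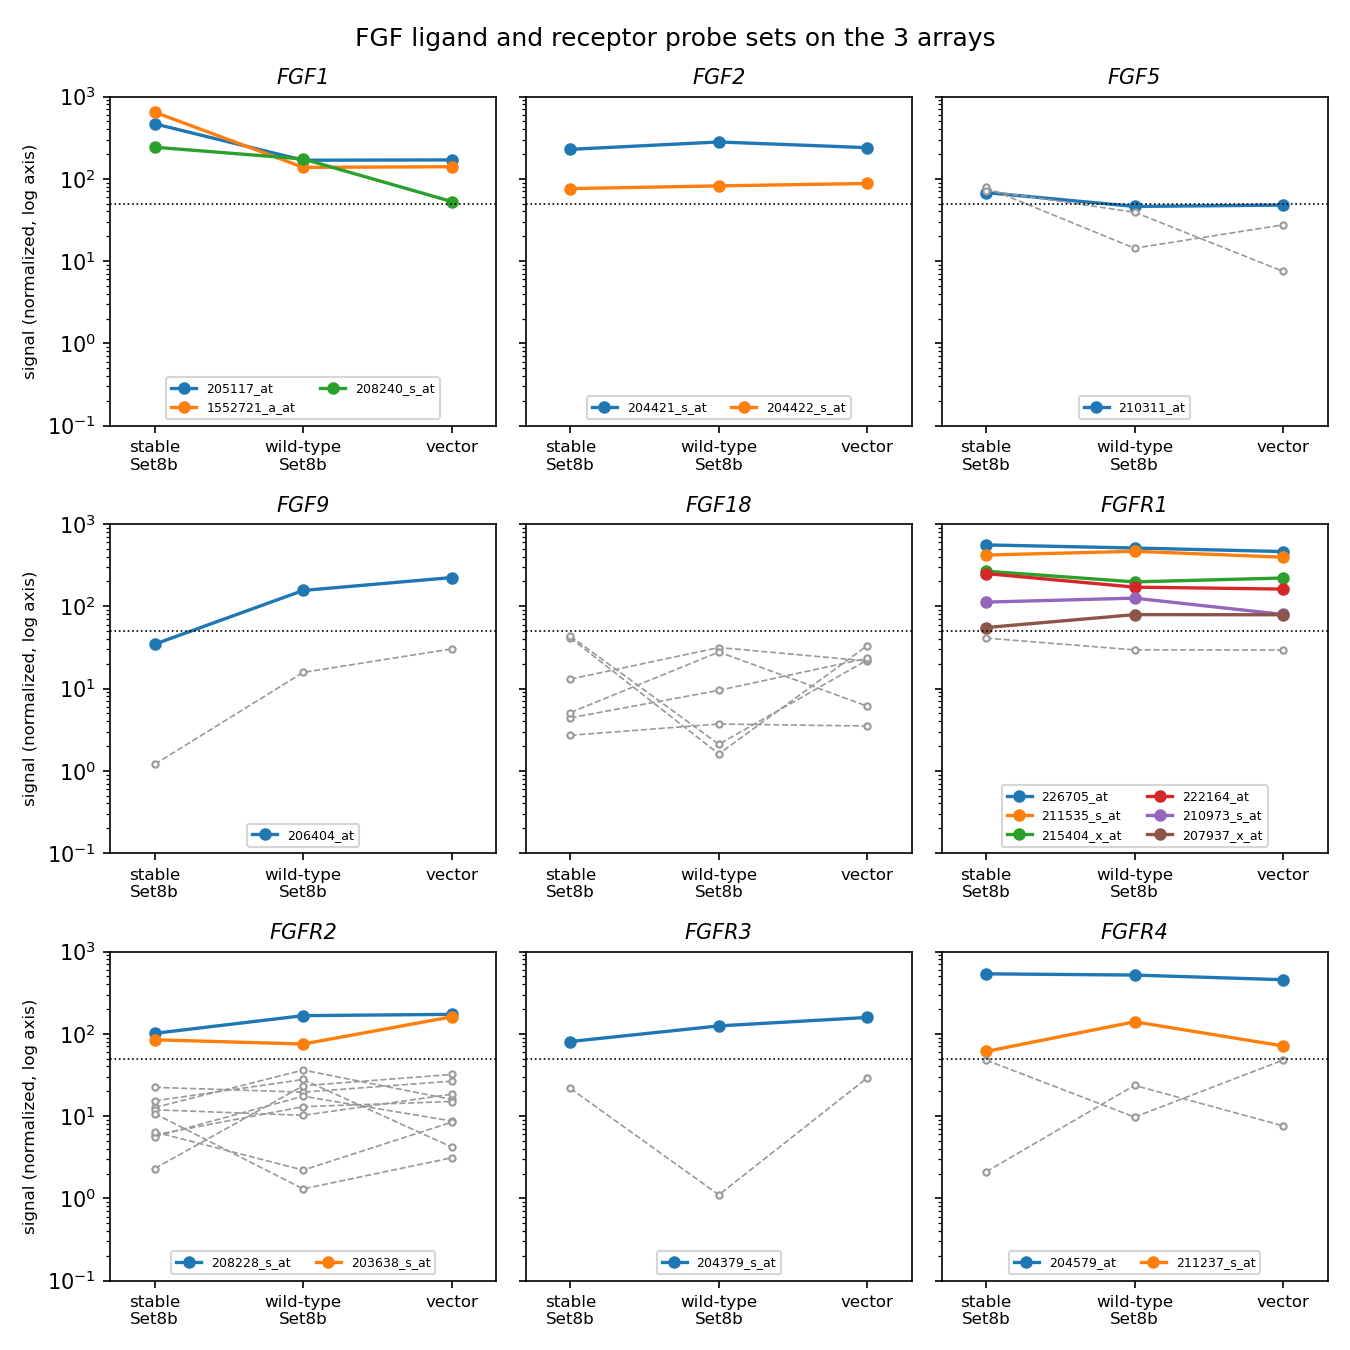
Normalized signal (log axis) of all 40 probe sets of the 9 genes on the stable Set8b, wild-type Set8b and vector arrays, 1 panel per gene, with a line joining the 3 values of a probe set. Coloured solid lines are the 18 probe sets with a geometric mean of at least 50, grey dashed lines the other 22, and the dotted line is a signal of 50; all 3 FGF1 probe sets are highest with stable Set8b, and all 6 FGF18 probe sets stay below the dotted line.

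The comparison of stable Set8b with vector sets the degradation-resistant enzyme beside no added enzyme. By the brightest probe set of each gene, 1 of 8 member genes was at least 2-fold higher (FGF1) and 1 of 8 at least 2-fold lower (FGF9), against 4.9% of all 11847 genes higher and 4.31% lower. By probe set, 3 of 18 were at least 2-fold higher and 1 lower, against 4.41% and 4.18% of 20708 probe sets. The median log2 difference was 0.08 over the 8 genes and -0.01 over all genes. Of the member genes 4 lay above 0 and 4 below, against 5833 and 5989 among all genes.

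Stable against wild-type Set8b sets the resistant form beside the degradable one, with the same stable Set8b array as above. FGF1 was again the 1 member gene at least 2-fold higher and FGF9 the 1 at least 2-fold lower, against 4.11% and 4.35% of all genes. By probe set, 2 of 18 were higher and 2 lower, against 4.1% and 3.95%, and the second lower one belonged to FGFR4. The median over the 8 genes was -0.12, against -0.02 over all genes.

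Wild-type Set8b against vector sets the degradable enzyme beside no added enzyme, and each of its arrays is also in one of the other comparisons. By the brightest probe set 0 of the 8 member genes passed 2-fold in either direction, against 0.701% of all genes higher and 0.355% lower. By probe set 1 of 18 was higher (FGF1) and 1 lower (FGFR2), against 0.826% and 0.637%. Each of these genes had another probe set that differed by less than 0.1 log2, so neither gene is given a direction for this comparison.

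**Figure D2:**
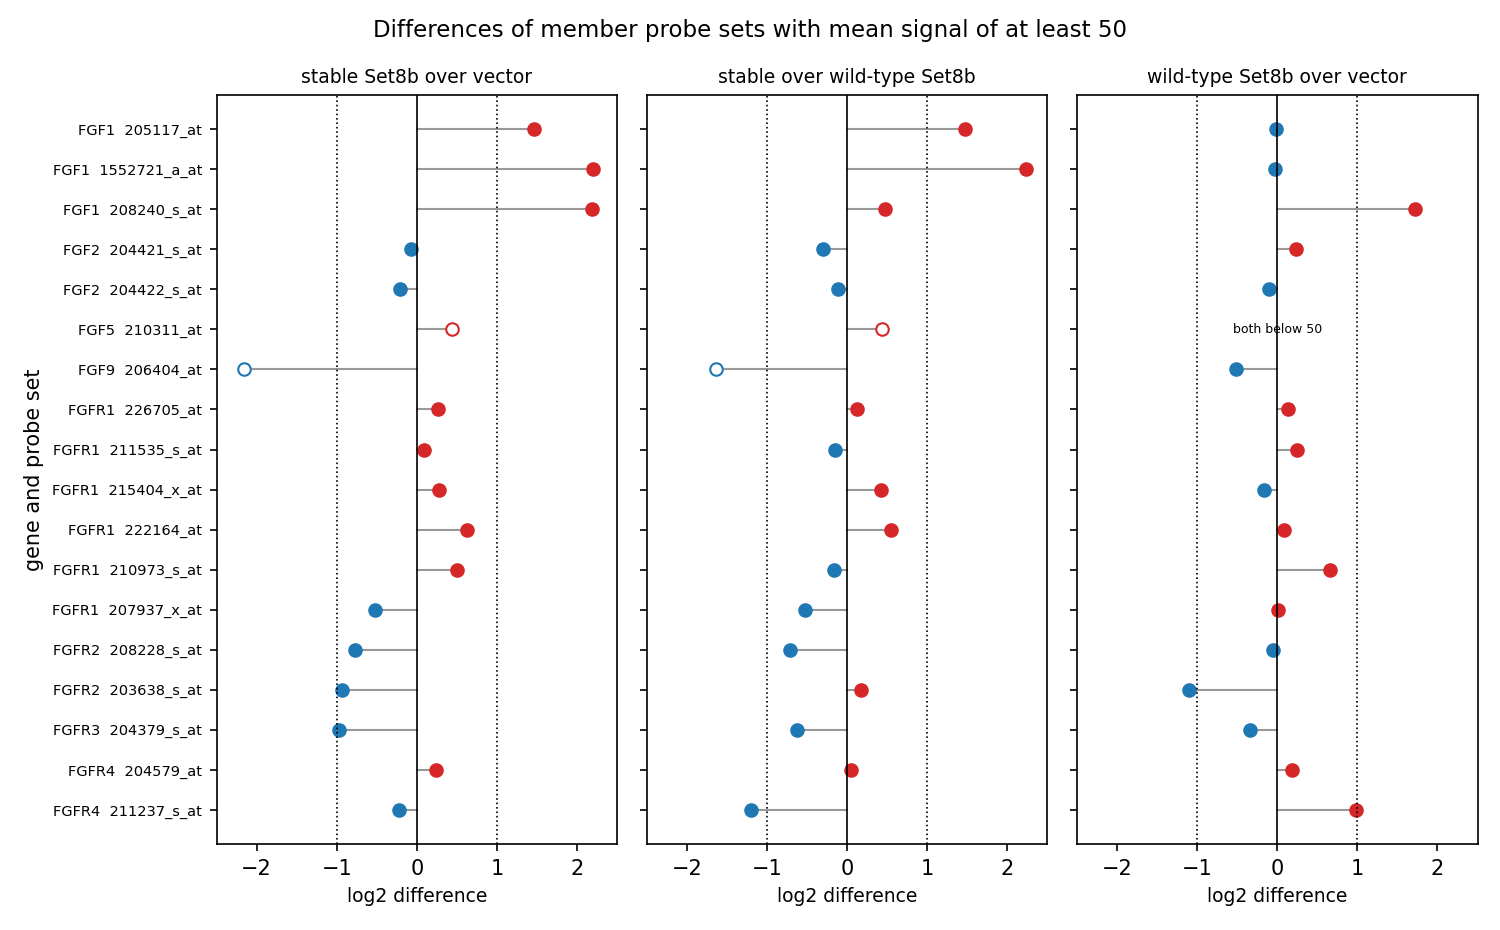
Log2 difference (x axis) of the 18 member probe sets with a geometric mean signal of at least 50, for stable Set8b over vector, stable over wild-type Set8b and wild-type Set8b over vector, with dotted lines at 2-fold. Red points are above 0, blue points below 0, and open points are differences against a signal below 50 set to 50; the 3 FGF1 points lie past 2-fold on the right in the first panel and the FGF9 point past 2-fold on the left.

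FGF1, a ligand that lacks a classical signal peptide and can bind all 4 receptors, was read by 3 probe sets, all past the filter. Its brightest probe set by geometric mean, 205117_at, read 466 with stable Set8b, 168.0 with wild-type Set8b and 169.5 with vector. That is 2.75-fold over vector (log2 1.46) and 2.77-fold over wild-type Set8b (log2 1.47), while the wild-type and vector arrays were level at a log2 difference of -0.01. Probe set 1552721_a_at read 645, 137.5 and 140.0 in the same order, 4.61-fold over vector and 4.69-fold over wild-type Set8b. In both, only the stable Set8b array was high.

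The remaining FGF1 probe set, 208240_s_at, read 242 with stable Set8b, 174.0 with wild-type Set8b and 52.9 with vector. It was 4.57-fold higher with stable Set8b than with vector but 1.39-fold higher than with wild-type Set8b, and 3.29-fold higher with wild-type Set8b than with vector. So the 3 probe sets placed the stable Set8b array highest, with a mean log2 difference over vector of 1.95 (SD 0.43 over 3 probe sets), and disagreed on the wild-type array. Their log2 difference of wild-type Set8b over vector was -0.03, -0.01 and 1.72, and which transcript forms they read was not analysed. The vector value of 208240_s_at was close to 50, and that array also stood apart in its poly-A spike-ins, whose part in this value was not tested.

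FGF9, a ligand that signals between cells in the developing skeleton and elsewhere, was the other ligand past 2-fold. Probe set 206404_at read 34.6 with stable Set8b, 155.6 with wild-type Set8b and 223 with vector. The stable Set8b signal was near background, so the log2 difference was -2.16 or lower against vector and -1.64 or lower against wild-type Set8b, at least 4.46-fold and 3.11-fold. The wild-type array lay between the others, 0.52 below vector on the log2 scale, which is 1.44-fold. The second FGF9 probe set, 239178_at, read 1.2, 15.7 and 30.3 in the same order of arrays, all below 50, and it supports no difference of its own. FGF9 therefore rests on 1 probe set.

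FGF5, a ligand known for ending the growth phase of hair follicles, stayed close to background. Its 3 probe sets read 67.9, 78.3 and 71.9 with stable Set8b (210311_at, 208378_x_at and 210310_s_at), against 46.1, 14.3 and 39.2 with wild-type Set8b and 47.8, 27.5 and 7.5 with vector. All 3 were above 50 with stable Set8b and below it on both other arrays. With the dim side set to 50 the log2 difference of 210311_at, the 1 probe set past the filter, was at least 0.44 over either array, 1.36-fold. This lower limit is short of 2-fold and of about the size of the spread between probe sets. The difference itself can be larger, and its size cannot be given.

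FGF2, a ligand of many mesenchymal cells that also lacks a classical signal peptide, was present on every array without a clear difference. Probe set 204421_s_at read 228 with stable Set8b, 280.0 with wild-type Set8b and 239 with vector, and 204422_s_at read 75.9, 81.9 and 87.7. The log2 differences over vector were -0.07 and -0.21 with stable Set8b and 0.23 and -0.10 with wild-type Set8b, within the spread between probe sets. In the RefSeq gene table FGF2 overlaps NUDT6, and whether these probe sets also read that gene was not tested. FGF18, which regulates cartilage and bone growth, had 6 probe sets with signals from 1.6 to 43.2, all below 50 on all 3 arrays, so no level or difference can be given for it.

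Among the receptors, FGFR1 was read by 7 probe sets, 6 of them past the filter, and its level hardly differed. The brightest, 226705_at, read 557 with stable Set8b, 511 with wild-type Set8b and 462 with vector, log2 differences of 0.27 over vector and 0.13 over wild-type Set8b. Over the 6 probe sets the log2 difference of stable Set8b over vector ran from -0.52 to 0.63, with a mean of 0.21 (SD 0.40), and 0 of them passed 2-fold in any comparison. The highest difference was that of 222164_at, which read 249.7, 170.8 and 161.7 in the same order of arrays, and the lowest was that of 207937_x_at, which read 55.1, 79.1 and 78.8. The probe sets thus put the stable Set8b array on different sides of the others.

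FGFR4, a receptor best known from liver and muscle, also had a bright probe set that was level. Probe set 204579_at read 535 with stable Set8b, 517 with wild-type Set8b and 454 with vector, a log2 difference of 0.24 over vector and 0.05 over wild-type Set8b. The dimmer 211237_s_at read 61.0, 139.8 and 71.1, which is 2.29-fold lower with stable than with wild-type Set8b and 1.97-fold higher with wild-type Set8b than with vector. Here the wild-type array stood apart, and the brighter probe set did not show it. The remaining 2 probe sets were below 50 on every array.

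FGFR2, whose alternative splicing makes epithelial and mesenchymal forms with different ligand ranges, was read by 11 probe sets, of which 9 were below 50 on every array. Probe set 208228_s_at read 101.2 with stable Set8b, 166.0 with wild-type Set8b and 172.1 with vector, log2 differences of -0.77 over vector and -0.71 over wild-type Set8b. Probe set 203638_s_at read 84.5, 75.0 and 160.5, log2 differences of -0.93 and 0.17. Both were lower with stable Set8b than with vector by 1.70-fold and 1.90-fold, but in 203638_s_at the wild-type array was as low, at -1.10 against vector. In that probe set the vector array alone was high. This array also stood apart in its poly-A spike-ins, whose part in the FGFR2 values was not tested. Which splice forms these probe sets read was not analysed.

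FGFR3, a receptor that restrains growth plate cartilage, followed the same side. Probe set 204379_s_at read 80.5 with stable Set8b, 124.6 with wild-type Set8b and 157.9 with vector, log2 differences of -0.97 over vector (1.96-fold lower) and -0.63 over wild-type Set8b. The wild-type array lay between the others, at -0.34 against vector. The differences of FGFR2 and FGFR3 from vector exceeded the spread between probe sets (0.369) but not 2-fold. With the arrays centred on their medians in place of quantile normalization, FGFR3 was at -1.05 and the FGFR2 probe set 203638_s_at at -1.01, both past 2-fold. The second FGFR3 probe set stayed below 50 throughout.

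Over all 18 member probe sets past the filter the stable Set8b array was the highest in 8, the wild-type array in 5 and the vector array in 5, and the lowest in 7, 5 and 6. The same counts were not made over all probe sets, so no tendency of the members is read from them. By the range over the 3 arrays of each gene's brightest probe set, FGF9 (2.16 log2) and FGF1 (1.47) came first, then FGFR3 (0.97) and FGFR2 (0.77), then FGF5 (0.44), FGF2 (0.30), FGFR1 (0.27) and FGFR4 (0.24). The last 4 of these differ from each other by less than the spread between probe sets.

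The genes closest in pattern to FGF9 and FGF1 were taken as those with the smallest Euclidean distance between centred log2 signals over the 3 arrays, among 11101 genes. The FGF9 signal with stable Set8b was below 50 and set to 50, so its pattern and distances hold for that set value only. The genes closest to FGF9 were PCDH18 at a distance of 0.066, IFIT1 at 0.082 and C1QTNF2 at 0.108. For FGF1 they were ZBTB38 at 0.013, MAMDC4 at 0.024 and GADD45A at 0.033. MAMDC4 read 140.6 with stable Set8b, but its 45.6 with wild-type Set8b and 28.9 with vector were both set to 50, so its level course over those arrays comes from that step. GADD45A, a stress-induced growth arrest gene, read 5220 with stable Set8b, 1937 with wild-type Set8b and 1902 with vector. Only 3 arrays enter, and 95 genes lay within 0.25 of FGF1 and 14 within 0.25 of FGF9.

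The rest of the pathway was described by lists of genes grouped by role, using the brightest probe set of each gene. Of 13 other secreted FGF ligands 1 passed the filter, FGF21, an endocrine ligand that needs the co-receptor KLB. It read 41.4 with stable Set8b, 231 with wild-type Set8b and 149.7 with vector, at least 2.99-fold lower than vector and at least 4.62-fold lower than wild-type Set8b. With a floor at 100 in place of 50 these log2 differences were -0.58, short of 2-fold, and -1.21. KLB itself did not exceed 28.5 on any array. The intracellular FGF homologous factors, which do not act through FGF receptors in the usual way, were measured by FGF11, FGF12 and FGF13, with log2 differences over vector of -0.10, 0.55 and -0.27.

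Co-receptors, the decoy receptor FGFRL1 and FGF binding proteins were 17 measured genes of 24 listed. With stable Set8b over vector 12 lay above 0 and 5 below, against 5833 and 5989 among all genes. Of the 17, 3 were at least 2-fold higher and 1 lower, against 4.9% and 4.31% of all genes. The median was 0.59 against -0.01 over all genes. SDC4, a cell surface proteoglycan that carries heparan sulfate, read 3178 with stable Set8b, 1372 with wild-type Set8b and 1312 with vector, 2.42-fold over vector. The adhesion protein gene L1CAM was 2.07-fold higher (819, 496 and 395), and FLRT3, a membrane protein that binds FGF receptors, 2.01-fold higher (165.9, 77.2 and 82.7), though its other probe set was at 0.12 log2. NCAM1, an adhesion molecule that can bind FGFR1, was lower, at 312 with stable Set8b, 684 with wild-type Set8b and 639 with vector, with its 2 probe sets at -1.04 and -0.99 over vector. FGFRL1, which lacks the kinase domain, was at 0.65 over vector with stable Set8b and 0.54 with wild-type Set8b. With the arrays centred on their medians 1 gene of the list, in place of 3, was at least 2-fold higher. Over wild-type Set8b the list's median was 0.23, with 2 genes at least 2-fold higher and 1 lower, against 4.11% and 4.35% of all genes. For wild-type Set8b over vector the list's median was 0.08 with 0 past 2-fold, against 0.701% of all genes higher and 0.355% lower.

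The enzymes that build and edit heparan sulfate had a median of 0.05 with stable Set8b over vector, against -0.01 over all genes. Of 13 measured genes 0 passed 2-fold, against 4.9% of all genes higher and 4.31% lower. EXT1, part of the heparan sulfate polymerase, was the highest of them at 0.85 (2600 with stable Set8b, 1228 with wild-type Set8b and 1441 with vector), with its 3 probe sets between 0.79 and 1.12. Over wild-type Set8b it was at 1.08, the 1 gene of the list past 2-fold there, against 4.11% of all genes higher and 4.35% lower. HS6ST2 was at 0.32 over vector, with its other probe set at -0.33, and SULF1 did not pass the filter. Receptor adaptors and the relay to ERK, 24 measured genes of 32 listed, had a median of 0.05 over vector and 0 past 2-fold. The shares of all genes were again 4.9% higher and 4.31% lower. In lists this short a count of 0 does not show that the genes were unchanged. The adaptor GRB2 was at -0.06, and SHC1, another adaptor, was the highest at 0.93, with its other probe set at 1.34. For wild-type Set8b over vector 1 gene of the list passed 2-fold, GAB1 at -1.08, against 0.701% of all genes higher and 0.355% lower. For FRS2 the annotation used here gave no probe set to the symbol by itself.

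**Figure D3:**
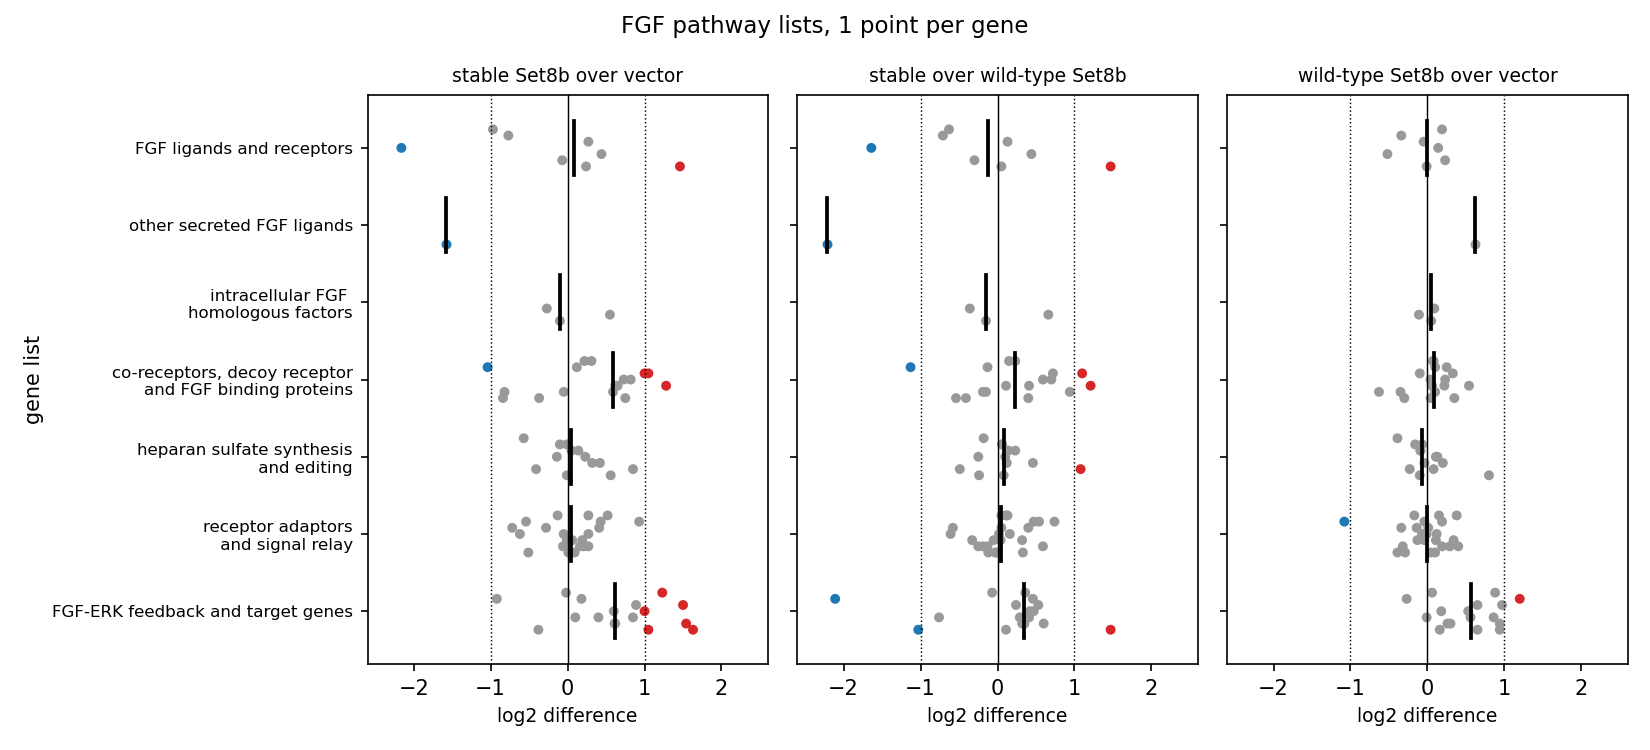
Log2 difference (x axis) of each measured gene, by its brightest probe set, in 7 gene lists (y axis) for the 3 comparisons, with a black bar at each list's median and dotted lines at 2-fold. Red and blue points are at least 2-fold higher and lower; in the first panel the medians of the co-receptor list (0.59) and the feedback list (0.62) lie to the right of 0, and those of heparan sulfate enzymes and adaptors are at 0.05.

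Genes that FGF-ERK signalling is known to induce, many of which other growth factors induce too, were measured for 17 of 24 listed. With stable Set8b over vector 14 lay above 0 and 3 below, against 5833 and 5989 among all genes. Of the 17, 6 were at least 2-fold higher and 0 lower, against 4.9% of all genes higher and 4.31% lower. The median was 0.62 against -0.01 over all genes. The cyclin D1 gene CCND1 read 2913 with stable Set8b, 1051 with wild-type Set8b and 939 with vector, 3.10-fold over vector. The ETS factor gene ETV5 read 696, 483 and 246 in the same order, 2.83-fold over vector, and its relative ETV4 read 223, 160.9 and 111.6, at the 2-fold mark by this probe set and at 1.79 log2 by its other. The phosphatase gene DUSP5 (175.3, 115.6 and 60.4) was 2.90-fold higher, FOSL1, an AP-1 subunit, 2.35-fold and SPRED3, an inhibitor of ERK signalling, 2.08-fold.

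In CCND1 the wild-type and vector arrays were close, at 0.16 log2 for wild-type Set8b over vector and -0.25 by its other probe set. In ETV5, DUSP5, SPRED3, FOSL1 and ETV4 the wild-type array was also above vector, at 0.97, 0.94, 0.94, 0.88 and 0.53, though the other ETV5 probe set was at 0.15. With the arrays centred on their medians 4 genes of the list, in place of 6, were at least 2-fold higher with stable Set8b over vector. For wild-type Set8b over vector the list's median was 0.56, against 0.01 over all genes. There 15 of 17 lay above 0, against 6045 of 11795 among all genes. FOS, at 1.20, was the 1 gene past 2-fold, against 0.701% of all genes higher and 0.355% lower. For stable over wild-type Set8b the list's median was 0.35, against -0.02 over all genes. In that comparison 1 gene was at least 2-fold higher and 2 lower, against 4.11% and 4.35% of all genes. The comparisons over vector share the vector array, which was lowest in most of these genes and which stood apart in its poly-A spike-ins, and the part of that array in this list was not tested. The immediate early genes FOS and IER2 were lower with stable than with wild-type Set8b, at -2.11 and -1.03. The Sprouty gene SPRY2 was at 0.61 over vector with stable Set8b. SPRY4, SPRY1 and DUSP6, the phosphatase most tied to ERK, did not pass the filter, and neither did SPRY3, DUSP4 and ETV1.

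**Figure D4:**
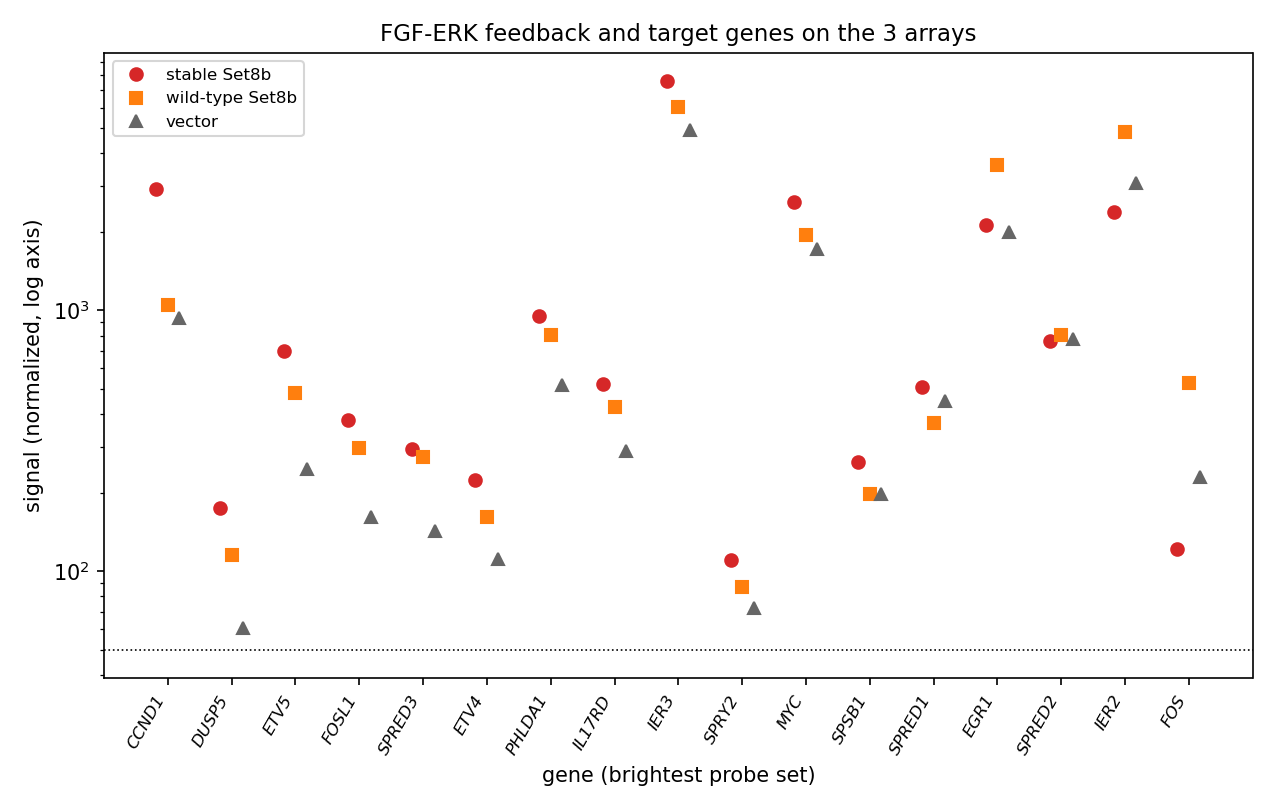
Normalized signal (log axis) of the 17 measured FGF-ERK feedback and target genes on the stable Set8b (circles), wild-type Set8b (squares) and vector (triangles) arrays, ordered by the log2 difference of stable Set8b over vector, with a dotted line at a signal of 50. CCND1 stands out with stable Set8b alone high (2913 against 1051 and 939), while FOS is highest with wild-type Set8b (528).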

How the data were processed

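Total RNA of U2OS cells was hybridised to Affymetrix arrays, 1 per group, per the labels' protocols. The values deposited by the authors are linear probe-set intensities, 54675 per array, of which 62 are controls, and the sources used here do not name the software behind them. No detection calls were used. Python 3.11.15 with numpy 2.4.6, pandas 2.3.3 and scipy 1.17.1 was used. The 54613 other probe sets were quantile normalized, since the log2 medians of the deposited intensities differed by 0.146 between the wild-type and vector arrays. This removes any overall shift between arrays. Signals below 50 were set to 50, log2 differences were taken, and probe sets or genes with a geometric mean of at least 50 were counted at 2-fold. Dim signals are noisy, and background can compress their differences. The brightest probe set stood for a gene. Probe sets with several symbols (1801) or none (11721) were not named. Normalization and 2-fold calls for stable Set8b over vector were checked on simulated data. Changes well past 2-fold, equally many up and down, were planted in brighter probe sets only. Changes close to 2-fold or in dim probe sets were not checked this way. Nor were the choice of the brightest probe set, list counts, probe set spread, nearest patterns and the motif search.

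The members, lists and alternatives were chosen with earlier results of these data known. All members are named. From each list the genes past 2-fold for stable Set8b over vector were named, at most 6, and always FGFRL1, KLB, SDC4, EXT1, HS6ST2, SULF1, FRS2, GRB2, DUSP6, SPRY2, SPRY4, ETV4 and ETV5, with KMT5A and the 3 genes closest in pattern to each of the 2 members with the widest range. A gene of this rule is not reported here. SHC1, GAB1, FOS, IER2, FGF11, FGF12, FGF13, SPRY1, SPRY3, DUSP4, ETV1 and markers were added after their values were seen. Alternatives were values as deposited, median centring, no floor, a floor of 7.7 (the 20th percentile) or 100, no filter, the brightest 25% of probe sets, 1.5-fold and 3-fold thresholds, omitting _x_at and _s_at probe sets, and the mean over probe sets.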

Additional observations from a re-analysis of the deposited data

How the results depend on the processing

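FGF1 was higher and FGF9 lower with stable Set8b than on either other array under every alternative that gave them a value, while counts of member genes and probe sets moved. FGF9 was at -2.69 over vector and -2.17 over wild-type Set8b with no floor or with a floor at the 20th percentile, and at -1.16 and -0.64 with a floor at 100, which by construction shrinks differences against dim signals. By the mean over probe sets FGF1 was at 1.95 over vector with stable Set8b and at 0.56 with wild-type Set8b. For stable Set8b over vector, 2 member genes and 3 probe sets were at least 2-fold lower with arrays centred on their medians, 0 and 0 among the brightest 25% of probe sets, which leaves FGF9 out, and 3 and 4 at 1.5-fold, while 0 genes were higher at 3-fold. For stable over wild-type Set8b, 0 genes and 0 probe sets were lower with a floor at 100 and among the brightest 25%, and 3 and 4 at 1.5-fold. At 3-fold 0 genes and 1 probe set were higher and 1 probe set lower, and without _x_at and _s_at probe sets 1 was lower. For wild-type Set8b over vector, 2 probe sets were higher with values as deposited and 3 at 1.5-fold. There 0 were higher with a floor at 100, among the brightest 25% and without _x_at and _s_at probe sets, and 0 were lower in these and at 3-fold. The cause of the moves under centring and deposited values was not tested. Counts past 2-fold over the whole array for stable Set8b over vector were 581 (higher) and 511 (lower), against 314 and 322 among the brightest 25%, where fewer are tested, 1573 and 1595 at 1.5-fold and 168 and 91 at 3-fold. For wild-type Set8b over vector, 83 higher and 42 lower became 55 and 90 with median centring. In counts added after seeing the data, 1 co-receptor gene was at least 2-fold higher over vector with median centring, against 3, and 2 feedback genes were higher for wild-type Set8b over vector with values as deposited, against 1. No paired analysis was possible because each group had 1 array. Signals below 50 limit FGF5, FGF9 and FGF18, and no interval can be given.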
